A study of Mus musculus with 2 samples.

Results

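Voltage-gated calcium channel subunits were examined in striatal RNA of mice without and with the dopamine D2 receptor. The 10 genes were taken as a fixed list, chosen with earlier results of these data known. The pore-forming alpha-1 subunit genes were Cacna1a, Cacna1b, Cacna1c, Cacna1d and Cacna1e. The alpha-2-delta genes were Cacna2d1, Cacna2d2 and Cacna2d3, and the beta genes were Cacnb2 and Cacnb4. The 10 are among the 18193 genes that the platform annotation pairs with a probe set of their own, and 28 probe sets belong to one of them alone. The groups were 1 array of Drd2-/- striatum, from mice lacking the D2 receptor gene, and 1 array of wild-type striatum. Both came from untreated males of the C57BL/6 background at 2 months of age, with the tissue picked out by hand under a dissecting scope. The sources used here do not give how the Drd2-/- allele was made or whether a sample was 1 animal or a pool. With 1 array per genotype no value has a replicate error, no difference was tested, and a gene is called apart by size alone, at 1.5-fold or 2-fold.

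A voltage-gated calcium channel is built around an alpha-1 subunit, which forms the calcium pore and senses voltage. A cytoplasmic beta subunit binds it, promotes its arrival at the membrane and tunes its gating, and an extracellular alpha-2-delta subunit raises the number of channels at the surface and at release sites. In the striatum these channels drive transmitter release and shape the firing of projection neurons, and signalling from the D2 receptor is known to reduce current through several of them.

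The targeted gene was checked first. Drd2, read by a single probe set, had a signal of 27.4 units and was called absent on the Drd2-/- array, against 3234.8 units and present on the wild-type array. Its place in the gene is not stated, so it may or may not fall in what was deleted. A signal is the brightness of a probe set in array units after the authors scaled each array, and the mean signal after trimming was 500.0 units on both arrays. Probe sets called present made up 58.7% on the Drd2-/- array and 57.9% on the wild-type array. Every direction follows the sample labels. Under the headers of the authors' comparison table, which swap the genotypes at all 45101 probe sets, every sign would be reversed. Drd2 would then be present at 3234.8 units in Drd2-/- and absent at 27.4 units in wild type. The ratios and calls of that table are therefore quoted with the sign set by the sample labels.

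Among the 10 subunit genes, the beta subunit gene Cacnb4 was higher on the Drd2-/- array at each of its 3 probe sets, between 1.70-fold and 2.33-fold. The alpha-2-delta gene Cacna2d1 was higher at 3 of its 4 detected probe sets. The 4 probe sets of the pore gene Cacna1a went in both directions. For the other 7 genes all 13 detected probe sets lay within 1.5-fold, with log2 ratios of Drd2-/- over wild type between -0.12 and 0.23. The ratio of a probe set present on 1 array is given as a bound, against the higher of its own dim signal and the lowest present signal of that array, and is set to 0 where the array called present had the lower signal.

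**Figure D1:**
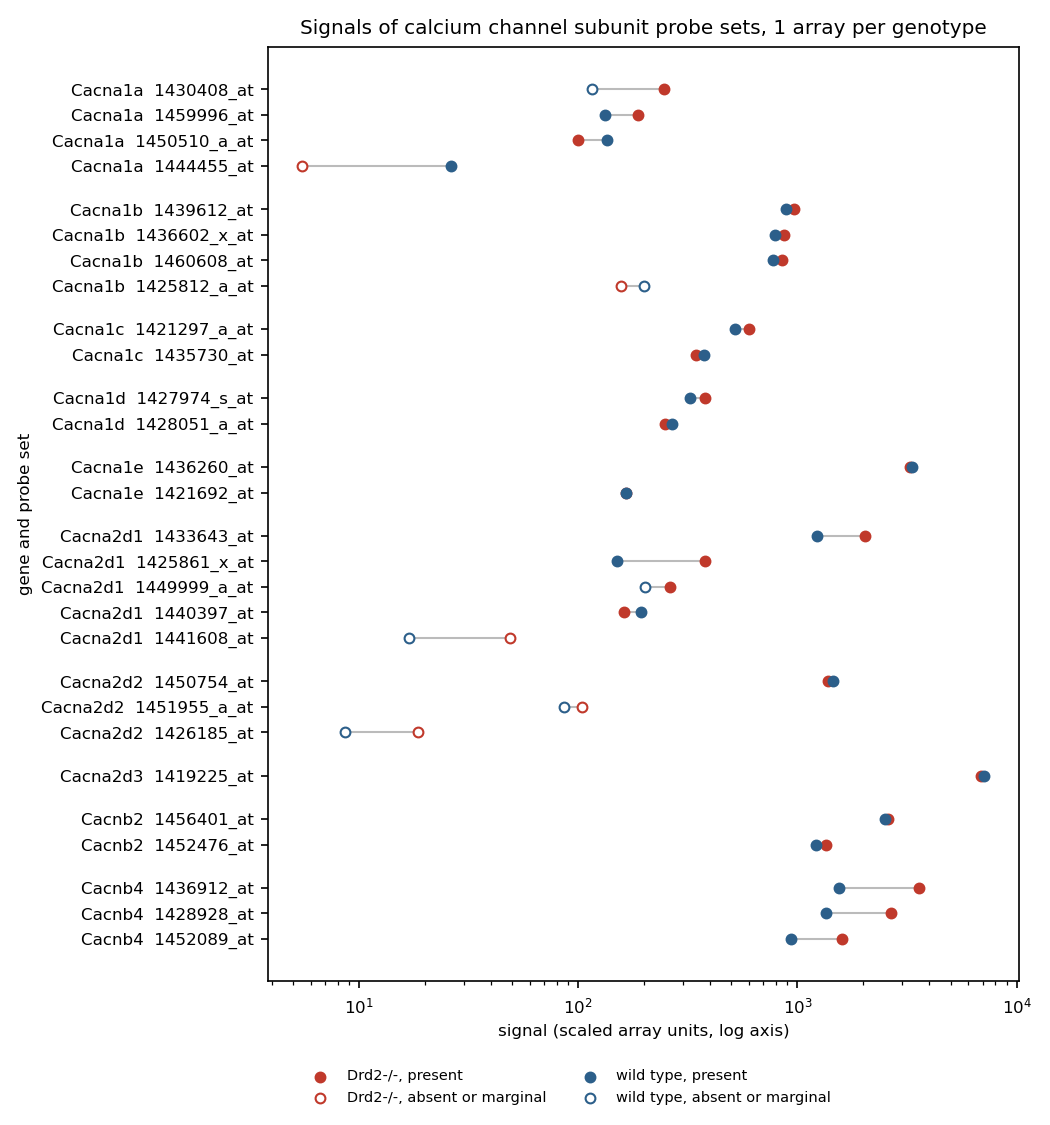
Signals of all 28 probe sets of the 10 subunit genes, in scaled array units on a log axis, with Drd2-/- in red and wild type in blue; filled points were called present, open points absent or marginal, and each point is 1 array. The 3 probe sets of Cacnb4 read 1597.0 to 3598.1 units in Drd2-/- and 938.1 to 1545.6 units in wild type, while the points of Cacna1e, Cacna2d3 and Cacnb2 nearly coincide.

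Each gene was represented by its brightest probe set, and all 10 representatives were detected, meaning present on at least 1 array. Of these, 3 were at least 1.5-fold higher in Drd2-/- and 0 at least 1.5-fold lower. Over all 12588 detected genes 9.18% were that much higher and 3.38% that much lower, 12.6% in all. Because the list was chosen with earlier results of these data known, setting it beside these shares is no test of it. The count of 3 includes Cacna1a, whose probe sets disagree, and Cacna2d1, which drops below 1.5-fold when its probe sets are summarised by their median; only Cacnb4 is then left. At 2-fold the count was 2 higher and 0 lower, against 3.12% and 0.818% of all detected genes, or 3.94% in all. The median log2 ratio of the 10 genes was 0.17, beside -0.06 over all detected genes. By probe set, 6 of the 24 detected were at least 1.5-fold higher and 1 was that much lower, where the shares of all detected probe sets were 14.2% and 3.33%. By 2-fold, 3 were higher and 1 was lower, against 5.91% and 0.788% of all detected probe sets. In the authors' deposited table, 7 of the 24 were called increased and none decreased, against 11.8% increased and 4.35% decreased of all detected probe sets.

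**Figure D2:**
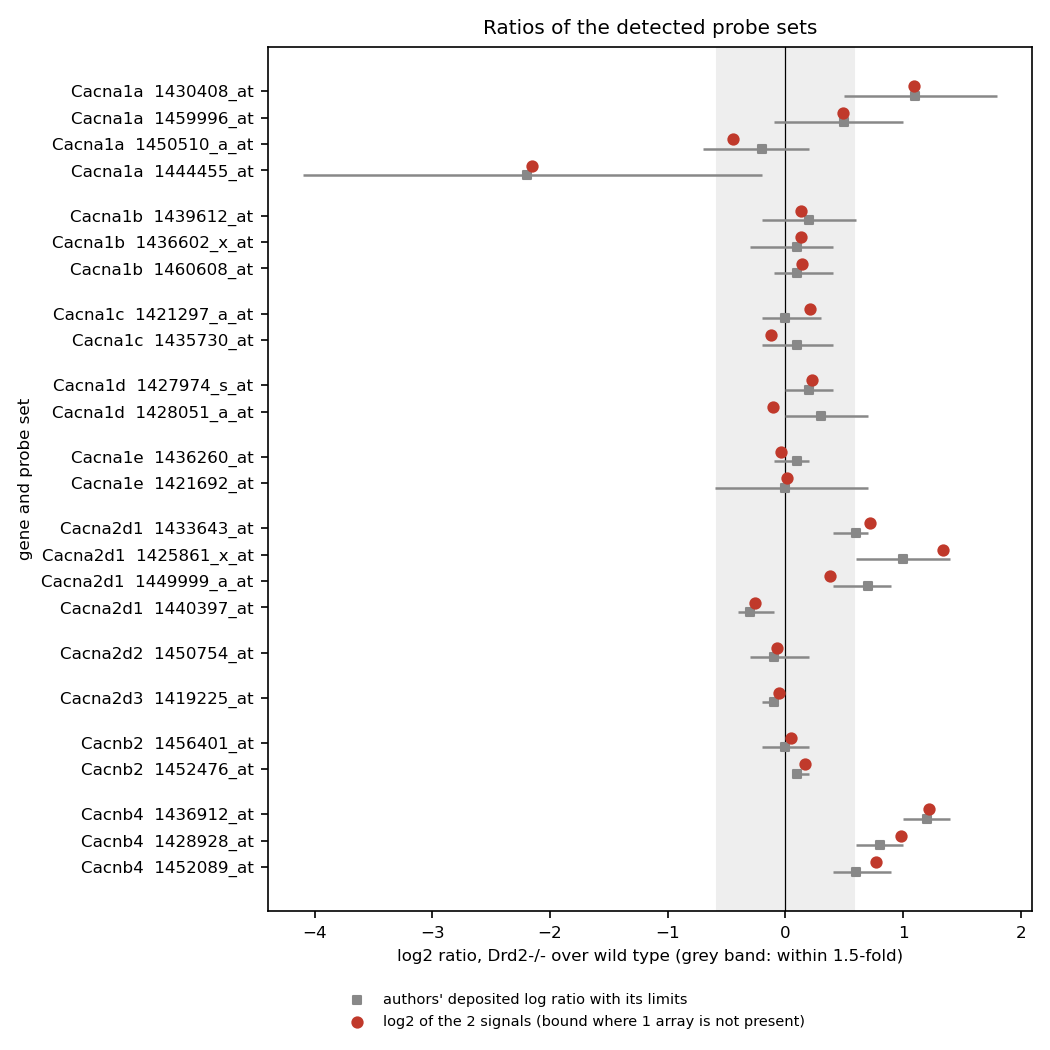
Log2 ratios of Drd2-/- over wild type for the 24 detected probe sets, as log2 of the 2 signals (red points) and as the log ratio with its limits in the authors' deposited table (grey squares and lines); the grey band marks 1.5-fold either way. The red points of Cacnb4 all lie right of the band, between 0.77 and 1.22, those of Cacna1a spread between -2.15 and 1.09, and those of the 7 genes with flat signals lie between -0.12 and 0.23.

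Cacnb4 encodes the beta-4 subunit, whose loss causes the ataxia and seizures of the lethargic mouse. Its brightest probe set, 1436912_at, made from an expressed sequence tag, read 3598.1 units in Drd2-/- and 1545.6 units in wild type, a log2 ratio of 1.22. The second, 1428928_at, read 2673.9 units in Drd2-/- and 1350.3 units in wild type, a log2 ratio of 0.99. The third, 1452089_at, made from a full-length message, read 1597.0 units in Drd2-/- and 938.1 units in wild type, a log2 ratio of 0.77. The Drd2-/- array was thus the higher at every probe set of this gene, and all 6 signals were called present. In the authors' deposited table all 3 are called increased, with log2 ratios and limits of 1.2 (1.0 to 1.4), 0.8 (0.6 to 1.0) and 0.6 (0.4 to 0.9). With 1 array per genotype those limits hold no spread between animals.

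The size of the Cacnb4 difference was uncommon among genes of similar brightness. Its representative lay in the brightest of 4 equal groups of detected genes, where 2.38% of genes were higher in Drd2-/- by 1.5-fold or more, 0.604% were as much lower, and 0.318% were higher by 2-fold or more. Of the 3147 genes in that group 2 had a higher log2 ratio, Kif5b and Spock3. Agreement of 3 probe sets was less rare: of 2347 genes with at least 3 probe sets present on both arrays, 105 genes (4.47%) had all of them at least 1.5-fold higher, Cacnb4 among them. In 54.2% of those 2347 genes the probe sets went in both directions.

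The promoter windows of Cacnb4 and Cacna2d1 are shown because both genes were higher by several probe sets. Each window runs from 250 bases before to 50 bases after a RefSeq start in mouse build GRCm38.p6, 5′ to 3′ on the gene's strand, and capitals mark the GC box GGGCGG and the cAMP response element half-site TGACG on either strand. The Cacnb4 window is chr2:52676094-52676393 on the minus strand, the most upstream of the 3 starts listed here for the gene. The Cacna2d1 window is chr5:15934441-15934740 on the plus strand.
Cacnb4: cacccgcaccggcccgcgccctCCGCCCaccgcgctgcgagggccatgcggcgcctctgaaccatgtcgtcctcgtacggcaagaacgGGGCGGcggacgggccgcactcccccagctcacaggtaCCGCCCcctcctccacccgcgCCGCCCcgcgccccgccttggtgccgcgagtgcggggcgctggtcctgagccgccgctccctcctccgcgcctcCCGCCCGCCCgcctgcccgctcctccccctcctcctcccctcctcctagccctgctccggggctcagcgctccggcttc
Cacna2d1: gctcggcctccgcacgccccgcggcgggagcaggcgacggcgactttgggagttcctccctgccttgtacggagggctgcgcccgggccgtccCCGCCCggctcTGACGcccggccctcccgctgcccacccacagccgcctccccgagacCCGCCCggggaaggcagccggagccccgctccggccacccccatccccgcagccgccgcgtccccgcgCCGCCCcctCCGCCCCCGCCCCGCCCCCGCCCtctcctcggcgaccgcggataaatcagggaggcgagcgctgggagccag
Motifs were looked for after the ratios were known, the response element because D2 receptor signalling is known to lower cAMP. The GC box occurred at 6 places in the printed Cacnb4 window and at 7 in the Cacna2d1 window, overlapping matches included. The other Cacnb4 windows held none. The GC box also occurred in a window of 6 other subunit genes, and in 35.7% of the 32851 windows of the table. The half-site occurred at 1 place in the Cacna2d1 window and at 0 in each of the 3 Cacnb4 windows, and 20.8% of all windows hold it. The full element TGACGTCA, which contains the half-site, was in none of the 15 windows of the 9 subunit genes that the table lists, and in 1.79% of all windows. These counts describe letters in a window and say nothing of which start was used in the striatum.

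Cacnb2, the other beta gene on the list and the main beta subunit of heart muscle, was nearly equal on the arrays. Its brighter probe set read 2602.6 units in Drd2-/- and 2517.7 units in wild type, a log2 ratio of 0.05, and its other probe set read 1355.3 units in Drd2-/- and 1209.2 units in wild type, a log2 ratio of 0.16. The log2 ratio of the representative of Cacnb4 exceeded that of Cacnb2 by 1.17. A further beta gene, Cacnb1, known as the beta subunit of skeletal muscle and also used in brain, had a log2 ratio of -0.34 at its representative, with 842.9 units in Drd2-/- and 1063.4 units in wild type. The beta genes with a named probe set therefore did not share a direction, and none of the differences between them was tested.

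Cacna2d1 encodes an alpha-2-delta subunit that binds the drugs gabapentin and pregabalin. Its representative, 1433643_at, read 2032.5 units in Drd2-/- and 1232.7 units in wild type, a log2 ratio of 0.72. The probe set 1425861_x_at, which by its suffix holds probes that can match other sequences, read 378.9 units in Drd2-/- and 149.5 units in wild type, a log2 ratio of 1.34. The probe set 1449999_a_at read 261.1 units and present in Drd2-/-, against 200.8 units and marginal in wild type, a log2 ratio of 0.38. These 3 were all called increased in the authors' deposited table at 0.6, 1.0 and 0.7. The remaining detected probe set, 1440397_at, had the opposite order, with 161.3 units in Drd2-/- and 192.5 units in wild type, and the authors' deposited table calls it unchanged at -0.3. Another probe set, 1441608_at, was absent on both arrays, at 49.0 units in Drd2-/- and 16.8 units in wild type. The direction for Cacna2d1 thus holds for its brightest probe sets and not for every one. With the median over its detected probe sets the log2 ratio was 0.55, under 1.5-fold.

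The other alpha-2-delta genes were flat. Cacna2d2, the gene mutated in the ducky mouse, read 1376.6 units in Drd2-/- and 1450.6 units in wild type at its single detected probe set, a log2 ratio of -0.08. Cacna2d3 read 6882.3 units in Drd2-/- and 7136.5 units in wild type at its single probe set, a log2 ratio of -0.05. Neither reached 1.5-fold under any alternative run. The ratio of Cacna2d1 exceeded that of Cacna2d2 by 0.80 and that of Cacna2d3 by 0.77 on the log2 scale, differences that were not tested. The other 2 probe sets of Cacna2d2 were absent on both arrays, with 104.1 and 18.5 units in Drd2-/- and 86.2 and 8.6 units in wild type.

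Cacna1a encodes the pore of the P/Q-type channel, the main channel for transmitter release at many central synapses. Its representative, 1430408_at, made from a testis cDNA, read 246.5 units and present in Drd2-/-, against 115.5 units and absent in wild type. The 2 signals were 2.13-fold apart, a log2 ratio of 1.09, which became 0.83 after quantile normalization. The probe set 1459996_at read 186.9 units in Drd2-/- and 133.0 units in wild type, a log2 ratio of 0.49. The probe set 1450510_a_at, made from a full-length message of the channel, read 99.3 units in Drd2-/- and 135.0 units in wild type, a log2 ratio of -0.44. The fourth, 1444455_at, read 5.5 units and absent in Drd2-/-, against 26.2 units and present in wild type, a bound of -2.15 on the log2 scale. The arrays therefore settle no direction for this gene: 2 probe sets were higher and 2 lower in Drd2-/-, all with signals under 250 units, and the median over them was 0.02. The authors' deposited table calls 1430408_at increased at 1.1, with limits of 0.5 to 1.8, and the others unchanged. In the dimmest of the 4 brightness groups, to which its representative belongs, 20.4% of genes were at least 1.5-fold higher in Drd2-/-, 7.94% as much lower and 8.77% at least 2-fold higher.

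The remaining pore genes differed little. Cacna1b, the pore of the N-type channel of nerve terminals, had 3 detected probe sets whose log2 ratios agreed closely, at 0.13, 0.13 and 0.14. Their signals were 966.0, 864.6 and 854.7 units in Drd2-/- and 883.6, 788.0 and 776.4 units in wild type, and the fourth probe set, 1425812_a_at, was absent on both arrays at 156.7 units in Drd2-/- and 198.7 units in wild type. All 3 present probe sets of Cacna1b were higher in Drd2-/-. Among them, 1436602_x_at by its suffix holds probes that can match other sequences.

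Cacna1c and Cacna1d encode the pores of the L-type channels of neurons, of which that of Cacna1d opens at less depolarised voltages. Cacna1c read 598.6 units in Drd2-/- and 519.0 units in wild type at one probe set, a log2 ratio of 0.21, and 346.2 units in Drd2-/- and 376.3 units in wild type at the other, a log2 ratio of -0.12. Cacna1d read 379.1 units in Drd2-/- and 323.9 units in wild type at 1427974_s_at, a log2 ratio of 0.23, and 247.9 units in Drd2-/- and 267.3 units in wild type at 1428051_a_at, a log2 ratio of -0.11. For both L-type genes the probe sets thus had opposite signs, and each was called unchanged in the authors' deposited table. There the second probe set of each gene had the opposite sign to its signals, at 0.1 for Cacna1c and 0.3 for Cacna1d.

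Cacna1e, the pore of the R-type channel, was the most even of the pore genes. It read 3247.4 units in Drd2-/- and 3325.5 units in wild type at 1436260_at, a log2 ratio of -0.03, and 165.6 units in Drd2-/- and 164.4 units in wild type at 1421692_at, a log2 ratio of 0.01. For the 13 detected probe sets of the 7 flat genes, the limits in the authors' deposited table ran from -0.6 to 0.7, so larger differences in single probe sets are not shown to be absent.

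**Figure D3:**
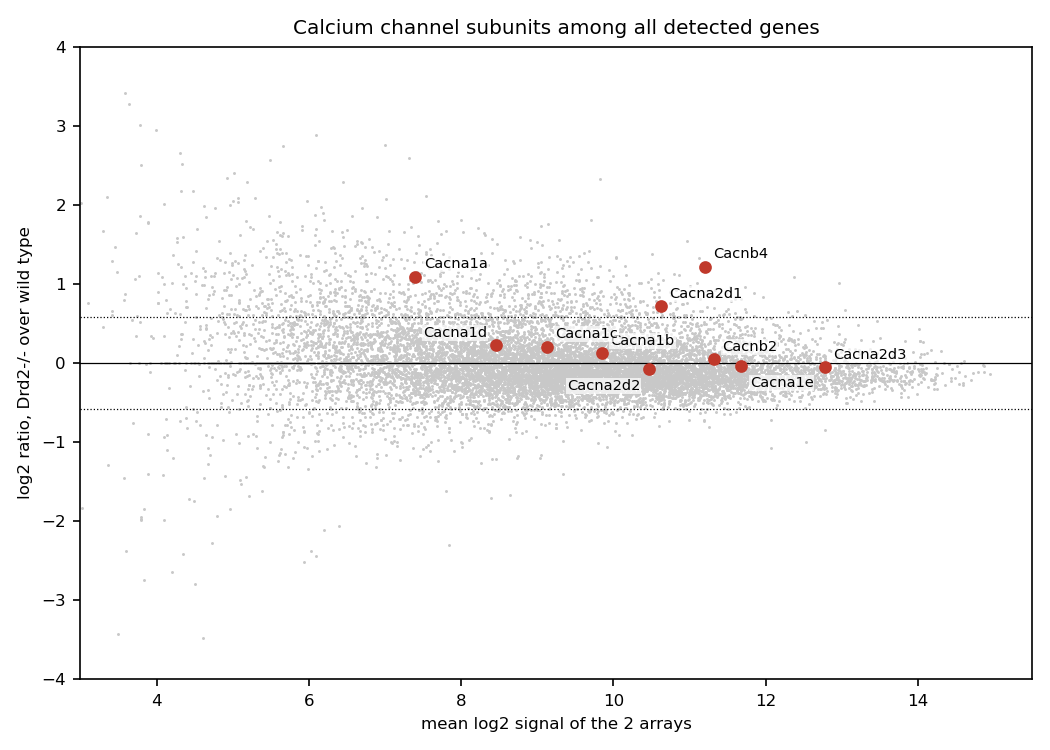
Log2 ratio of Drd2-/- over wild type against the mean log2 signal of the 2 arrays, for the representatives of all detected genes (grey) and of the 10 subunit genes (red); dotted lines mark 1.5-fold and 11 genes lie outside the axes. Cacnb4 stands at 1.22 among bright genes whose ratios are mostly within 1.5-fold, Cacna1a lies in the wider cloud of dim genes, and the other 7 genes besides Cacna2d1 lie near 0.

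How the arrays are scaled moves the balance of all genes, and the subunit genes were read against it. Of detected genes at least 1.5-fold apart, 73.1% were higher in Drd2-/- (1155 higher, 426 lower) with the deposited scaling, 82.3% after median centring, 45.0% after quantile normalization and 53.6% after intensity-dependent centring. Under all of these the 3 probe sets of Cacnb4 stayed between 0.77 and 1.30, and the representative of Cacna2d1 between 0.72 and 0.80. The representative of Cacna1a stayed between 0.83 and 1.17, while its full-length probe set, 1450510_a_at, read -0.79 after quantile normalization. The ratios of Cacna1e and Cacna2d3, within 0.10 of 0 on the log2 scale, changed sign between scalings.

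**Figure D4:**
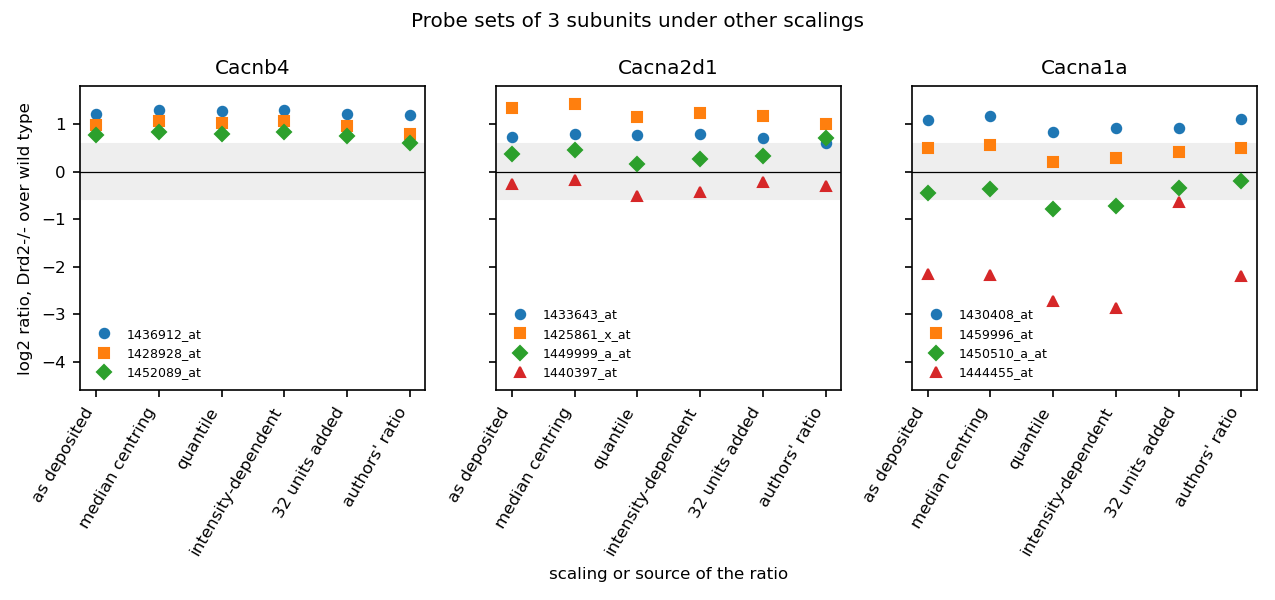
Log2 ratios of Drd2-/- over wild type for the detected probe sets of Cacnb4, Cacna2d1 and Cacna1a, as deposited, under 4 alternatives of scaling or offset, and as the log ratio of the authors' deposited table; the grey band marks 1.5-fold. All points of Cacnb4 lie above the band, the probe sets of Cacna2d1 keep their signs with 1440397_at below 0, and those of Cacna1a stay split on both sides of 0.

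The other calcium channel genes on the array were given by a list of 16, of which 14 had a probe set of their own and 9 were detected. Their median log2 ratio was -0.39, beside -0.06 over all detected genes. Of the 9, 0 were at least 1.5-fold higher and 2 as much lower, beside 9.18% and 3.38% of all detected genes. The 2 were Cacng3 and Cacng1, of the gamma family, several of whose members serve as auxiliary subunits of AMPA receptors. Cacng3, one of these, read 1847.8 units in Drd2-/- and 3241.0 units in wild type, 1.75-fold lower, and is called decreased in the authors' deposited table at -0.7. Cacng1, the gamma subunit of the skeletal muscle channel, was marginal at 103.7 units in Drd2-/- and present at 173.1 units in wild type, a bound of -0.74 that the authors' deposited table puts at -0.4 and calls unchanged. Cacna1h, a pore gene of the T-type channels that open near rest, read 1062.0 units in Drd2-/- and 1016.1 units in wild type, a log2 ratio of 0.06. The only other detected genes outside the gamma family were Cacna1g, at a bound of -0.39, and Cacnb1, at -0.34. Gamma genes thus made up most of the detected genes behind the median. The median of this list came to -0.15 with the median over detected probe sets, so its size depends on which probe sets stand for the genes.

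Genes that fill, empty and release calcium stores or carry calcium out of the cell were a list of 20, of which 18 were detected. Their median log2 ratio was -0.04, with 3 at least 1.5-fold higher and 1 as much lower, beside 9.18% and 3.38% of all detected genes. Ryr3, a calcium release channel of the endoplasmic reticulum, read 3267.0 units in Drd2-/- and 1736.1 units in wild type, a log2 ratio of 0.91. Its second probe set present on both arrays gave 0.45. The sodium-calcium exchanger gene Slc8a1 read 196.8 units in Drd2-/- and 95.4 units in wild type, a log2 ratio of 1.04. Its other probe sets were absent on both arrays, with log2 ratios of 1.21, -0.57 and 0.22, so the gene rests on 1 dim probe set. The authors' deposited table calls the representatives of both genes increased, at 0.7 for Ryr3 and 1.3 for Slc8a1. Atp2b4, a plasma membrane calcium pump, was dim at 60.1 units in Drd2-/- and 19.6 units and absent in wild type, a bound of 1.62 that the authors' deposited table puts at 0.4 and calls unchanged. The exchanger gene Slc8a2 was absent at 98.7 units in Drd2-/- and present at 195.5 units in wild type, but its other detected probe set had a log2 ratio of 0.40, so its direction is not settled.

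Partners of the channels at the synapse and membrane were a list of 20, of which 15 were detected. Their median log2 ratio was 0.15, with 1 at least 1.5-fold higher and 0 as much lower, beside 9.18% and 3.38% of all detected genes. The 1 was Akap5, which anchors protein kinase A and calcineurin beside L-type channels, at 1255.7 units in Drd2-/- and 830.1 units in wild type, a log2 ratio of 0.60. All 3 of its probe sets were higher in Drd2-/-, between 0.34 and 0.72. The largest ratio after it was that of Rimbp2, a scaffold protein that links calcium channels to release sites, at 0.36. The authors' deposited table puts Rimbp2 at 0.1, with limits of 0.1 to 0.2, and calls it increased.

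**Figure D5:**
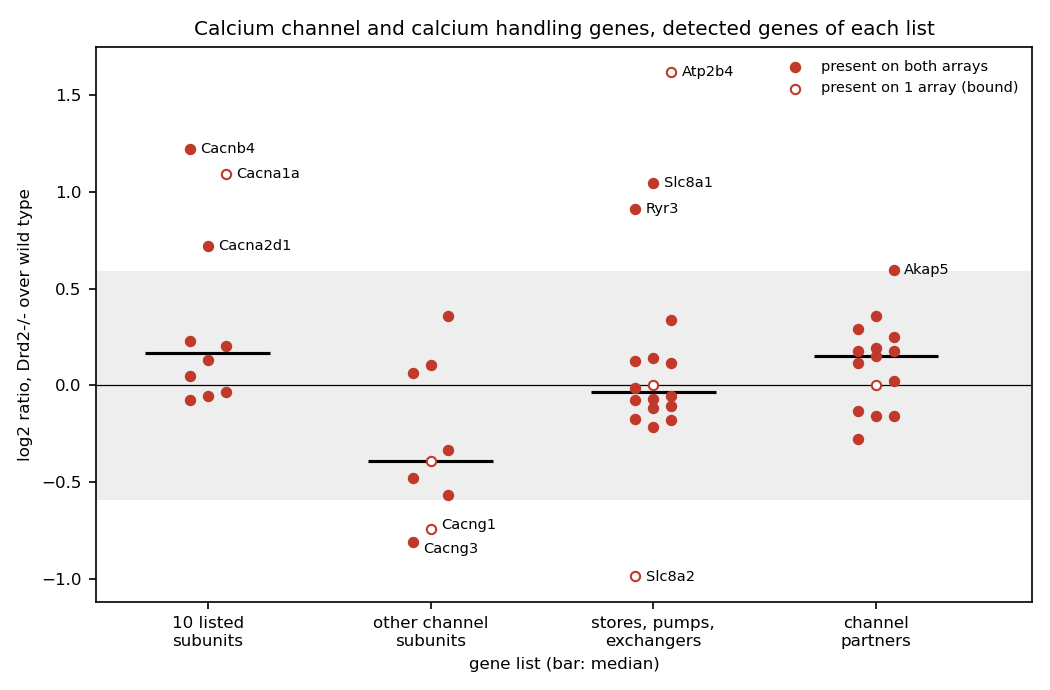
Log2 ratios of Drd2-/- over wild type for the detected genes of the 10 listed subunits, the other channel subunits, the store, pump and exchanger genes, and the channel partners; bars are medians, open points are bounds from genes present on 1 array, and the grey band marks 1.5-fold. The medians are 0.17, -0.39, -0.04 and 0.15, and genes at least 1.5-fold apart are named.

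Markers of cells and tissue that the hand-cut piece could hold were set beside these values. Over all detected genes the median log2 ratio was -0.06, with 9.18% at least 1.5-fold higher and 3.38% as much lower. In the dimmest of the 4 brightness groups these shares were 20.4% and 7.94%. Cortical excitatory neuron markers had a median log2 ratio of -0.33 over 11 detected of 13 measured, 0 at least 1.5-fold higher and 4 as much lower, with summed signals of 15986.5 units in Drd2-/- and 15695.7 units in wild type. Neurod6, a transcription factor of cortical neurons, read 25.6 units in Drd2-/- and 146.2 units in wild type, and Slc17a7, their vesicular glutamate transporter, 127.2 units in Drd2-/- and 391.6 units in wild type. Tbr1 was absent at 35.2 units in Drd2-/- and present at 152.5 units in wild type. The authors' deposited table calls Neurod6, Slc17a7 and Tbr1 decreased. Another 4 of the 11 had ratios above 0: Rorb at 0.39, Lamp5 at 0.17, Nrgn at 0.08 and Mef2c at 0.05. Lamp5, Nrgn and Mef2c were the brightest of the list and make up most of its summed signals. The list thus did not move one way, but only lower genes passed 1.5-fold. Thalamic and septal markers had a median of -0.06 over 8 of 9, with 2 higher, Rora at 0.75 and the dim Gbx2 at 0.58, and 2 lower, and summed signals of 1765.6 units in Drd2-/- and 1756.5 units in wild type. Interneuron markers had a median of -0.21 over 8 of 10, with summed signals of 10151.8 units in Drd2-/- and 12259.1 units in wild type. The 1 lower by 1.5-fold was Cck, at 397.7 units in Drd2-/- and 1052.6 units in wild type. The authors' deposited table calls it decreased at -1.3. Glial and vessel markers had a median of -0.27 over 9 detected, none 1.5-fold apart, with summed signals of 45981.3 units in Drd2-/- and 51823.3 units in wild type. All 10 measured markers of striatal projection neurons were present on both arrays, with a median of -0.10 over 10 detected and 1 lower by 1.5-fold. No marker on these lists was at a signal of 0. Their part in the ratios of Cacnb4, Cacna2d1 and Cacng3 was not tested, and in a piece of tissue fewer cells of a type and less RNA per cell cannot be told apart.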

How the data were processed

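Striatal RNA was measured on Affymetrix expression arrays, 1 for each genotype. Per the file headers, the authors deposited a scaled signal intensity and a detection call for each probe set, and a log2 Signal Log Ratio with limits and a change call between the arrays. The software and its settings are not given in the sources used here. Genotypes follow the sample labels. In the comparison table the signals of all 45101 probe sets stand under the other genotype's name, and 91 are equal under the same one, so its detection calls were joined through the signals and its ratios turned. Calls (present, increased, unchanged) and ratios quoted from it are the authors'.

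Gene names came from the platform annotation, which pairs 34945 probe sets with 1 gene, 932 with several and 9160 with none, besides 64 controls. For all 10 subunit genes the Entrez number carried the same symbol in the RefSeq table of GRCm38.p6. A gene was represented by its brightest probe set by mean log2 signal. Signals below 0.1 units were set to 0.1 before log2 was taken. The lowest present signal was 5.9 units in Drd2-/- and 5.0 in wild type. Ratios were computed in Python 3.11.15 with pandas 2.3.3, and lowess (span 0.2) with statsmodels 0.14.6; the steps were tested on simulated data.

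Genes named were Drd2, all 10 subunit genes and, of each calcium list, those at least 1.5-fold apart, with up to 2 examples of each marker list. The examples were picked with their values seen. Rorb, Lamp5, Nrgn, Mef2c and Tbr1 were named outside that rule or after their values were seen. So were Cacnb1, Cacna1h, Rimbp2, Kif5b and Spock3, and the genes of the closing section. Members and lists were chosen with earlier results of these data known. No gene was sought for a like pattern, since 2 arrays give none. Precision is limited by there being 1 array a genotype.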

Additional observations from a re-analysis of the deposited data

How the results depend on the processing

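No paired analysis was possible because each genotype has 1 array and the labels give no replicate numbers. For the same reason no array could be left out. The 9 alternatives were median centring, quantile normalization, intensity-dependent centring, 32 units added to both arrays, genes present on both arrays only, no detection filter, the median over detected probe sets, gene-specific probe sets only, and the authors' log ratio. The first 4 use plain ratios without bounds.

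Over these the log2 ratio ran from 0.99 to 1.30 for Cacnb4, from 0.55 to 0.80 for Cacna2d1 and from 0.02 to 1.17 for Cacna1a, the lowest of each from the median over probe sets. Presence on both arrays left Cacna1a without a value. Subunit genes at least 1.5-fold apart numbered 3, all higher, but 2 with presence on both arrays and 1 with the median over probe sets. Those at least 2-fold apart numbered 2, but 1 under quantile normalization, intensity-dependent centring, 32 units added and presence on both arrays, and 0 with the median over probe sets. The subunits' median of 0.17 became 0.051 with the median over probe sets, and that of the other channel subunits, -0.39, became -0.15 there and -0.26 with no detection filter. Of all genes, 426 were at least 1.5-fold lower, but 954 after quantile normalization, 759 after intensity-dependent centring, 268 with 32 units added, 1544 with no detection filter (3342 higher, 4886 apart) and 236 by the authors' log ratio. Beyond the choice of probe set the causes were not tested. Dim signals limit what the arrays show for Cacna1a.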

Other observations

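Rora, a nuclear receptor of the thalamic and septal list, had 6 probe sets present on both arrays, and all 6 were higher in Drd2-/-, with log2 ratios between 0.39 and 0.96. The vesicular glutamate transporter gene Slc17a6 of the same list was absent at 12.1 units in Drd2-/- and present at 58.5 units in wild type. The authors' deposited table calls this dim probe set unchanged at -2.7, with limits of -4.9 to -0.4. Of the 8 detected genes of the list 3 had ratios above 0 and 5 below, so the list did not share a direction.

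Of the pore genes outside the 10, Cacna1f of the retina and Cacna1s of skeletal muscle were absent on both arrays, at 81.7 and 63.2 units in Drd2-/- and 47.5 and 35.1 units in wild type. Cacna1g, another T-type pore gene, was absent at 99.2 units in Drd2-/- and present at 129.8 units in wild type.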
